A study of Mus musculus with 4 samples.

Results

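The 2 main glucose transporters and 8 enzymes of glycolysis were examined in mouse blastocysts, in both RNA-seq, which measures the mRNA level, and Ribo-seq, which measures ribosome protected fragments (RPF). The genes were Slc2a1, Slc2a3, Hk1, Hk2, Pfkl, Pfkp, Aldoa, Pgk1, Pkm and Ldha. They were found by symbol in the deposited tables, with the highest value used where a symbol was listed more than once. All 10 were present in both assays, among 20714 symbols that the assays share.

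The blastocysts were wild-type F1 embryos of 4-week-old C57BL/6 females and PWK/PhJ males, with no experimental treatment of the embryos. The maternal substrain is written C57BL/6N in one label and C57BL/6J in another. The females had been injected with the gonadotropins PMSG and hCG to induce ovulation. Embryos of 8 cells were collected and then grown to blastocysts in KSOM, so these are values of embryos that formed the blastocyst in culture, and the zona pellucida was taken off with acidic Tyrode's solution before lysis. RNA-seq libraries were made with Smart-seq2 and there were 2 replicates of each assay. Levels are given as FPKM (fragments per kilobase of sequence, scaled to the mapped fragments of a library), over the whole transcript in RNA-seq and over the coding sequence in Ribo-seq.

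Glucose enters a cell through facilitative transporters, among which Slc2a1 encodes GLUT1 and Slc2a3 encodes GLUT3. It is trapped by hexokinase, committed to glycolysis by phosphofructokinase, split by aldolase, and carried through the ATP-forming steps of phosphoglycerate kinase and pyruvate kinase to pyruvate, which lactate dehydrogenase can reduce to lactate. The cleavage-stage mouse embryo relies on pyruvate and takes up little glucose, and glucose uptake and glycolysis rise as the blastocyst forms.

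Several steps are encoded by paralogues, so their values are only as separate as their sequences allow. No 28-base window of the coding sequence, about the length of a ribosome footprint, was shared between Slc2a1 and Slc2a3, between Hk1 and Hk2, or between Pfkl and Pfkp. The most similar in-frame windows are shown for each pair, because the split of reads between paralogues rests on such bases. Capitals mark the bases that differ within a pair. All lie in coding exons and had 0 exact copies elsewhere in the genome (NCBIM37, the assembly of mm9).
Slc2a1, exon 3, chr4:118804818-118804845, plus strand: gtggccatcttctctgtCggGggcatga
Slc2a3, exon 3, chr6:122689894-122689921, minus strand: gtggccatcttctctgtTggTggcatga
Hk1, exon 15, chr10:61747562-61747589, minus strand: gacttcctggccttggatctCggaggaa
Hk2, exon 11, chr6:82685354-82685381, minus strand: gacttcctggccttggatctTggaggaa
Pfkl, exon 5, chr10:77463485-77463512, minus strand: gacttctgtggcacTgacatgaccattg
Pfkp, exon 5, chr13:6620196-6620223, minus strand: gacttctgtggcacAgacatgaccattg
The pair Slc2a1 and Slc2a3 differed at 2 bases in its most similar window and the other pairs at 1 base. The Ribo-seq mapping allowed 2 mismatches. A footprint from these windows matches only 1 of the paralogues exactly, and whether any was assigned to the other paralogue was not tested.

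Aldoa, Pgk1, Pkm and Ldha stood apart from the other 6 genes in another respect, because copies of parts of their coding sequences, some of them in annotated pseudogenes, lie elsewhere in the mouse genome. The share of 28-base windows with an exact copy elsewhere was 0% for Slc2a1, Hk1, Hk2, Pfkl and Pfkp and 0.137% for Slc2a3. It was 53.8% for Aldoa, 67.4% for Ldha, 79.9% for Pkm and 100% for Pgk1. None of the windows of these 10 genes occurred at more than 20 genome places. The limit of 20 places was set by the authors for mapping to the transcriptome, which need not hold every genome copy. The copies fell on 31 loci for Ldha (16 on annotated pseudogenes), 15 for Pkm (6 on pseudogenes), 13 for Aldoa (6) and 7 for Pgk1 (3). The window with the most copies that lay within 1 exon is shown for Aldoa, Pgk1 and Ldha and for Gapdh. It was the one enzyme of the pathway with most of its windows at more than 20 genome places.
Aldoa, exon 2, chr7:133941162-133941189, minus strand, 5 copies elsewhere: caagggcatcctggctgcagatgagtcc
Pgk1, exon 9, chrX:103397889-103397916, plus strand, 5 copies: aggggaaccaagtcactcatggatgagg
Ldha, exon 2, chr7:54102998-54103025, plus strand, 12 copies: cctcaaggaccagctgattgtgaatctt
Gapdh, exon 4, chr6:125112935-125112962, minus strand, 136 copies: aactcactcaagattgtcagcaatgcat
For Gapdh, 92.4% of the windows were at more than 20 places, with a median of 66 copies. The values of Aldoa, Pgk1, Pkm and Ldha are therefore less certain than those of the transporters, Hk and Pfk genes, since reads of a copied window can be shared out or assigned to a copy.

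**Figure D1:**
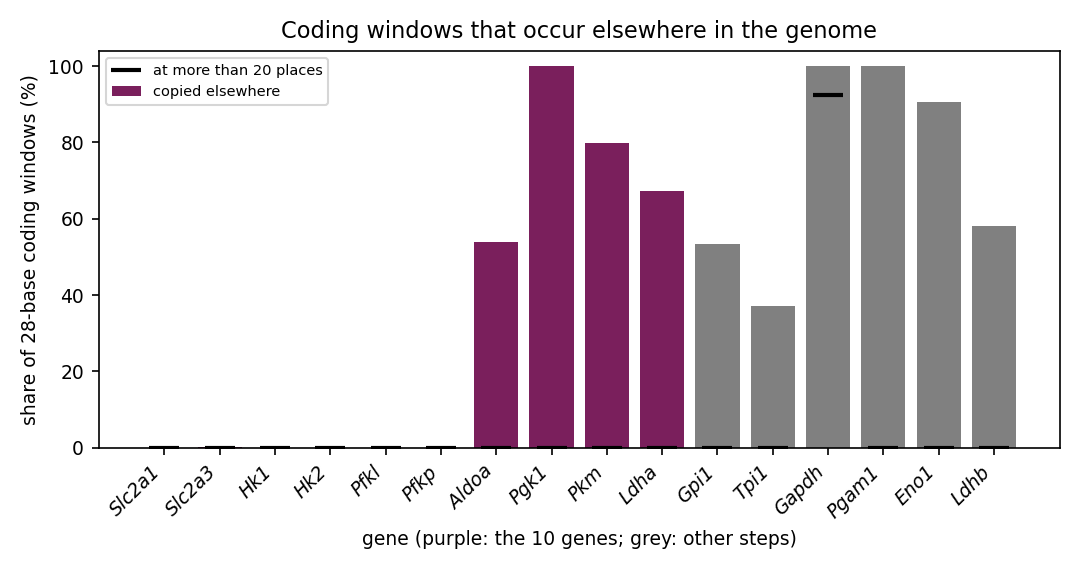
Share of 28-base coding windows (%, y axis) with an exact copy elsewhere in NCBIM37, for the 10 genes (purple) and 6 other genes of the pathway (grey), with black dashes for the share at more than 20 places. The transporters, Hk and Pfk genes are at or near 0%, Aldoa, Pgk1, Pkm and Ldha lie between 53.8% and 100%, and Gapdh alone has windows above the limit (92.4%).

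The libraries were blastocysts by their markers. All 5 trophectoderm markers, led by Krt18 and Krt8, and all 3 epiblast markers were detected in every library, while 2 of 4 primitive endoderm markers (Sox17 and Gata4) were at 0 in RNA-seq replicate 2. The summed FPKM of the trophectoderm markers ranged from 2743 to 2996 in RNA-seq and from 5212 to 5613 in Ribo-seq. For the epiblast markers the sums were 141 and 57.4 in RNA-seq and 681 and 810 in Ribo-seq. For the primitive endoderm markers they were 12.5 and 9.34 in RNA-seq and 154 and 143 in Ribo-seq. Whether the embryos of the assays differed in stage or in cell types was not tested. Of the 5 cumulus and granulosa markers 4 were at 0 in all libraries, and the one that was not, Cyp11a1, had 2.71 to 25.4 FPKM. Markers of oocyte, blood and fibroblast summed to at most 1.93 FPKM, and those of sperm to 0 except in Ribo-seq replicate 2, where Prm2 was listed at 33.7 FPKM. In bulk embryos, fewer cells of a type and less RNA per cell cannot be told apart. The deposited FPKM carry no counts. The steps between low values implied 533806 and 484388 mapped footprints for Ribo-seq, and 84.1% and 84.6% of tested values were within 0.1 of a whole footprint, where chance gives 20%. For RNA-seq they implied 5438285 and 5163524 fragments, with only 46.1% and 44.7% of values near a whole fragment, so that RNA-seq fragment numbers are approximate.

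Of the 2 transporter genes, Slc2a3 had the higher mRNA and RPF levels. Neither assay measures protein, transport or enzyme activity, so levels here and below are of mRNA and RPF only. The mRNA level of Slc2a3 was 69.5 and 46.8 FPKM in RNA-seq replicates 1 and 2, and its RPF level was 481 and 557 FPKM, from about 329 and 346 footprints. The mRNA level of Slc2a1 was 15.7 and 15.1 FPKM, and its RPF level was 42.5 and 43.6 FPKM, from about 29.0 and 27.0 footprints. Slc2a3 was above Slc2a1 in all 4 libraries. The 2 RNA-seq replicates of Slc2a3 differed by 0.56 on the log2 scale, more than those of Slc2a1 (0.05).

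The share of Slc2a3 was higher in both Ribo-seq libraries than in both RNA-seq libraries. Within a library the ratio of 2 genes does not depend on library scaling, although it does depend on transcript length in RNA-seq and coding length in Ribo-seq. Slc2a3 exceeded Slc2a1 4.43-fold (95% counting interval 3.82 to 5.15) and 3.10-fold (2.65 to 3.65) in mRNA. In RPF it exceeded Slc2a1 11.3-fold (7.73 to 17.2) and 12.8-fold (8.63 to 19.7). The intervals of the 2 RNA-seq libraries did not overlap each other, so the spread between libraries exceeded counting error, and these intervals do not test the difference between the assays. As a share of the FPKM of both genes, Slc2a1 took 18.4% and 24.4% of the mRNA and 8.12% and 7.25% of the RPF. With 2 libraries per assay, the exact two-sided permutation test could not go below p = 0.333, which it gave (adjusted p = 0.417 over 5 pairs). Intervals here and below cover counting error only.

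Of the 9 other glucose transporters measured, 4 were at 0 in all libraries and 1 passed the filter of at least 1 FPKM mean in both assays. This was Slc2a8, an intracellular transporter, which was at 6.04 and 4.22 FPKM in mRNA and at 35.6 and 27.2 FPKM in RPF. Its RPF level was thus below that of Slc2a1 in both replicates, as was its mRNA level.

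Of Hk1 and Hk2, nearly all mRNA and RPF was that of Hk2, which encodes the insulin-responsive isoform bound to the mitochondrial outer membrane. The mRNA level of Hk2 was 70.0 and 49.8 FPKM, and its RPF level was 134 and 140 FPKM, from about 182 and 174 footprints. Hk1, the broadly expressed isoform of adult tissues such as brain, was at 0 in both RNA-seq libraries and at 2.93 and 2.42 FPKM in Ribo-seq. Those RPF values rest on about 4.12 and 3.09 footprints, whose 95% intervals are 1.15 to 10.4 and 0.658 to 8.90. Against a floor of 3 fragments per library for Hk1, Hk2 mRNA was at least 463-fold and 313-fold higher. In RPF, Hk2 exceeded Hk1 45.7-fold (17.5 to 169) and 58.1-fold (19.5 to 284). Whether the few Hk1 footprints came from Hk2 through mismatches was not tested.

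The genes of phosphofructokinase, whose paralogues encode its subunits, were low in both assays. Pfkl, the liver-type subunit, was at 3.55 and 2.90 FPKM in mRNA and at 17.2 and 10.3 FPKM in RPF, the latter from about 19.7 and 10.7 footprints. Pfkp, the platelet-type subunit, was at 0.627 and 0.926 FPKM in mRNA and at 9.55 and 2.87 FPKM in RPF, the latter from about 11 and 3.0 footprints. Pfkl was above Pfkp in all 4 libraries, taking 85.0% and 75.8% of the mRNA and 64.4% and 78.2% of the RPF of both genes. Pfkm, the muscle-type subunit, named after its values were seen, was at 1.89 and 2.29 FPKM in mRNA, above Pfkp in both libraries, and at 7.86 and 3.85 FPKM in RPF, and it is not part of this share. The assays overlapped in the share of Pfkl (exact two-sided permutation p = 1 for the log2 ratio). Neither Ribo-seq library alone separated the subunits by counting error, since the counting intervals of the ratio, 0.825 to 4.17 and 0.947 to 20.0, both include equal levels. The 2 Ribo-seq libraries were not tested together. The 2 Ribo-seq replicates of Pfkp differed by 1.45 on the log2 scale, the widest replicate difference among the 10 genes.

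**Figure D2:**
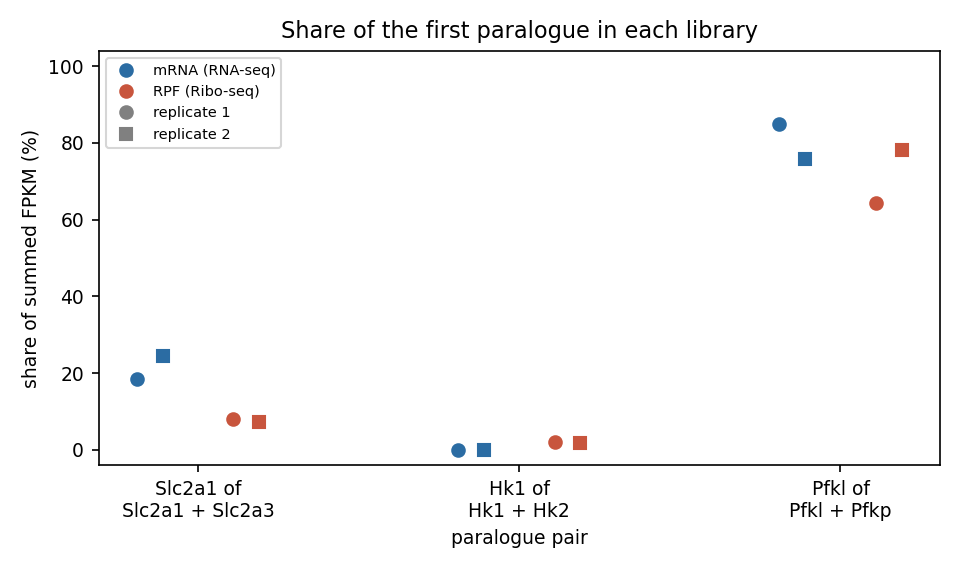
Share of the first paralogue in the summed FPKM of each pair (%, y axis), with 1 point per library, blue for RNA-seq and red for Ribo-seq. Slc2a1 takes 18.4% and 24.4% of the mRNA but 8.12% and 7.25% of the RPF, Hk1 is at or near 0% throughout, and the assays overlap for Pfkl.

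Aldoa, the muscle-type aldolase that splits fructose 1,6-bisphosphate, was the most abundant of the 10 genes in every library. Its mRNA level was 457 and 567 FPKM and its RPF level was 940 and 912 FPKM, from about 449 and 395 footprints. Among all gene symbols it was at percentiles 99.2 and 99.3 in RNA-seq and 98.3 and 98.3 in Ribo-seq. It exceeded the next gene by 8.55-fold in mean mRNA (Hk2) and by 1.78-fold in mean RPF (Slc2a3). Aldoc, the brain-type paralogue, was at 0 in both Ribo-seq libraries and in RNA-seq replicate 2, and at 0.222 FPKM in RNA-seq replicate 1.

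The genes of the ATP-forming enzymes stood between Aldoa and Pfkl in level. Pgk1, the X-linked phosphoglycerate kinase, was at 52.7 and 63.1 FPKM in mRNA and at 101 and 114 FPKM in RPF, the latter from about 57.0 and 58.0 footprints. Pkm, which gives the PKM1 and PKM2 forms of pyruvate kinase by alternative splicing, was at 30.4 and 29.3 FPKM in mRNA and at 150 and 103 FPKM in RPF, the latter from about 111 and 69.4 footprints. The 2 forms share most exons and were not separated here. Pgk1 was above Pkm in mRNA without overlap between replicates, whereas in RPF the 2 genes overlapped.

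The genes of lactate dehydrogenase were low in both assays. The mRNA level of Ldha, the muscle-type subunit, was 2.30 and 1.92 FPKM, and its RPF level was 11.7 and 19.4 FPKM, from only about 5.01 and 7.51 footprints. Their 95% intervals were 1.63 to 11.7 and 3.14 to 15.1 footprints, so the replicates did not differ beyond counting error. Ldhb, the heart-type subunit, was at 0 in both Ribo-seq libraries and in RNA-seq replicate 1, and at 0.775 FPKM in RNA-seq replicate 2. Of the windows, 67.4% of Ldha and 58.1% of Ldhb occurred elsewhere, on 31 loci for Ldha and 1 locus for Ldhb, and the part of this in the low values was not tested.

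The order of the mRNA levels was Aldoa, Hk2, Slc2a3, Pgk1, Pkm, Slc2a1, Pfkl, Ldha, Pfkp and Hk1. Of the 9 neighbouring pairs in that order, Hk2 with Slc2a3 and Slc2a3 with Pgk1 overlapped between replicates. The order of the RPF levels was Aldoa, Slc2a3, Hk2, Pkm, Pgk1, Slc2a1, Ldha, Pfkl, Pfkp and Hk1. Here Hk2 with Pkm, Pkm with Pgk1, Ldha with Pfkl, and Pfkp with Hk1 overlapped. The 10 genes together made up 0.135% and 0.146% of the summed FPKM in RNA-seq and 0.0992% and 0.0972% in Ribo-seq.

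**Figure D3:**
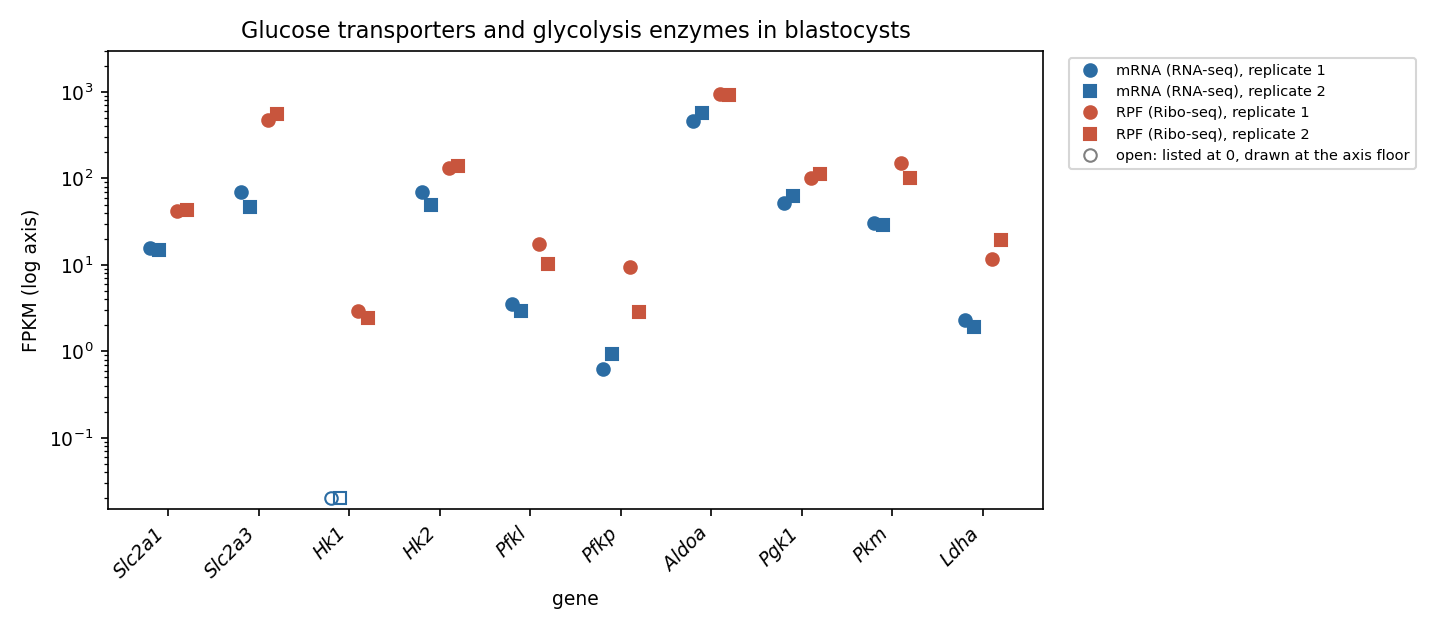
FPKM (log y axis) of the 10 genes in each library, with circles for replicate 1 and squares for replicate 2, blue for mRNA and red for RPF. Aldoa is highest throughout, Slc2a3 shows the widest gap from mRNA (46.8 and 69.5) to RPF (481 and 557) among the genes above 10 FPKM in both assays, and open symbols mark Hk1, which was at 0 in both RNA-seq libraries.

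RPF was then set against mRNA for all genes, to ask which had more or less RPF relative to mRNA than the median gene. Nothing in the labels pairs the RNA-seq and Ribo-seq libraries. A difference between the assays therefore cannot be told apart from a difference between the embryos used for each. On the log2(FPKM + 1) scale, the RPF level was 2.40-fold above the mRNA level for the median gene, and the cause was not tested. Differences are given on this scale relative to this median. The added 1 draws the difference of genes with low values towards 0 before the median is subtracted. After that step their difference can be too low or too high. A gene was called at an adjusted p under 0.05 (limma, Benjamini-Hochberg over the 8327 genes with a mean of at least 1 FPKM in both assays) and a log2 difference of at least 1. Over all genes tested, 13.6% were called higher in RPF and 5.73% lower. Of the 10 genes 8 passed the filter, and Hk1 and Pfkp did not, since their mean mRNA was under 1 FPKM. Among the 8, 1 was called higher and 0 lower, and their median difference was 0.34, with 5 above and 3 below the median gene.

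Slc2a3 was the gene called higher. From its values given above, its RPF was 1.90 ± 0.24 (log2 difference ± SE, n = 2 libraries per assay) above the median gene, with an adjusted p of 0.00641 in limma. This was at the 93.6th percentile of all differences, and the call was kept under each of the 11 alternatives, where the log2 difference ranged from 1.43 to 3.16 and the adjusted p from 0.000524 to 0.0287. For Slc2a1 the difference was 0.17 ± 0.25 (adjusted p = 0.664, limma). The mRNA of Slc2a3 and Hk2 was lower in RNA-seq replicate 2, by 0.56 and 0.48 on the log2 scale. The summed mRNA of the 3 epiblast markers was 141 and 57.4 FPKM in the same replicates (70.1 and 28.6 for Pou5f1, 69.8 and 28.1 for Nanog, 0.889 and 0.682 for Sox2). Its part in the level of these genes was not tested. Without RNA-seq replicate 1, Slc2a3 was at 2.18, and without RNA-seq replicate 2 it was at 1.60.

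For Ldha the RPF was 1.12 ± 0.43 and for Pkm 0.76 ± 0.26 above the median gene on the log2 scale, and neither passed the test (limma adjusted p = 0.130 for Ldha and 0.10 for Pkm). The difference of Ldha was 1.43 without Ribo-seq replicate 1, in which it had about 5.01 footprints, and 0.65 without Ribo-seq replicate 2. Pfkl was at 0.51 ± 0.43 (adjusted p = 0.431, limma). Hk2 was at -0.06 ± 0.24 (adjusted p = 0.878, limma), and its sign turned without RNA-seq replicate 1 (0.18). Hk2, which encodes the first enzyme of the pathway, thus carried RPF close to the median gene, with its libraries overlapping.

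Aldoa and Pgk1 were below the median gene, at -0.40 ± 0.15 and -0.37 ± 0.21, and did not pass the test (limma adjusted p = 0.122 and 0.264). Counted by overlap alone, the centred libraries of 5 genes were higher in RPF without overlap (Slc2a1, Slc2a3, Pfkl, Pkm and Ldha), against a background of 35.9% of all genes tested. Those of 2 genes, Aldoa and Pgk1, were lower without overlap, against a background of 30.2%. With so few libraries such separation is common, and it was read only beside the limma test. The 4 genes with copied coding windows had a median difference of 0.19 and the 4 tested genes with 0% to 0.137% of windows copied had 0.34.

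**Figure D4:**
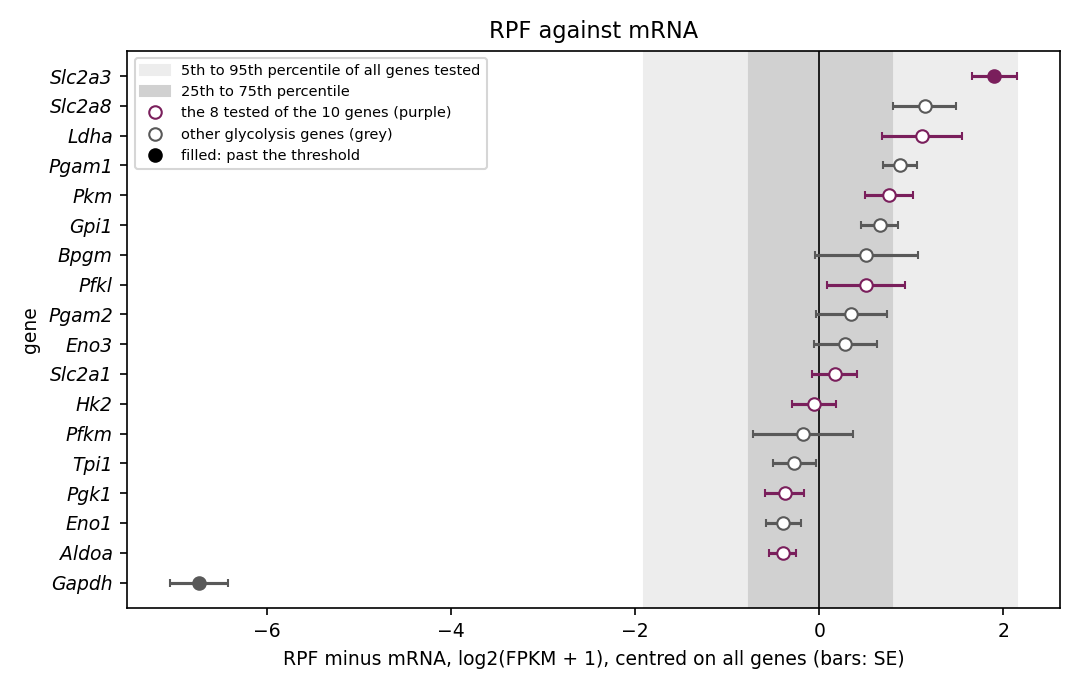
RPF minus mRNA on the centred log2(FPKM + 1) scale (x axis, bars show SE, n = 2 libraries per assay) for the tested glycolysis and glucose transport genes, in purple for the 10 genes and grey for the others, with grey bands for the 5th to 95th and 25th to 75th percentiles of 8327 genes. Filled points passed the threshold, and these were Slc2a3 at 1.90 and Gapdh at -6.74.

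**Figure D5:**
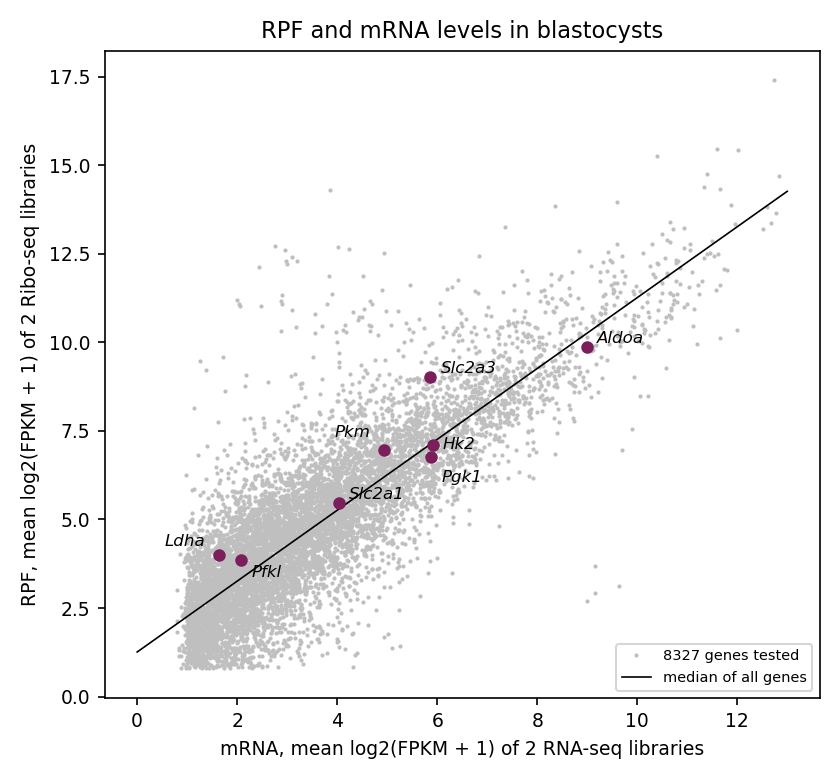
Mean RPF (y axis) against mean mRNA (x axis), both as mean log2(FPKM + 1) of 2 libraries, for 8327 genes in grey and the 8 tested genes in purple, with a line for the median difference of 1.26. Slc2a3 lies 1.90 above the line, Hk2 and Slc2a1 lie close to it, and Aldoa and Pgk1 lie 0.40 and 0.37 below it.

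The remaining steps were read from 20 other genes of the pathway, of which 9 were tested, with a median difference of 0.28. Of these, 0 were called higher and 1 lower, beside 13.6% and 5.73% of all genes tested. The gene called lower was Gapdh, glyceraldehyde-3-phosphate dehydrogenase, which was at 562 and 574 FPKM in mRNA but at 16 and 8.60 FPKM in RPF, the latter from about 6.84 and 3.34 footprints. Its difference was -6.74 ± 0.32 (adjusted p = 0.000297, limma), and 92.4% of its footprint-sized windows were at more genome places than the mapping limit. The part of this in the Gapdh value was not tested. None of the other 8 tested enzyme genes was called. Of those named here, Pgam1 and Gpi1 were above the median gene and Tpi1 and Eno1 below it, and 100%, 53.5%, 37.1% and 90.5% of their windows, in that order, had a copy elsewhere. Pgam1, phosphoglycerate mutase, was at 56.6 and 51.6 FPKM in mRNA and 256 and 227 FPKM in RPF, a difference of 0.88 ± 0.19 (limma adjusted p = 0.0288) that stayed below the size needed for a call. Gpi1, glucose-6-phosphate isomerase, was at 35.2 and 35.6 FPKM in mRNA and 134 and 138 FPKM in RPF, a difference of 0.65 ± 0.20 (limma adjusted p = 0.0719). Triosephosphate isomerase, encoded by Tpi1, had 169 and 219 FPKM in mRNA and 325 and 454 in RPF, and its difference was -0.27 ± 0.23. Enolase, encoded by Eno1, had 70.4 and 82.5 FPKM in mRNA and 142 and 138 in RPF, and its difference was -0.39 ± 0.19. Neither passed the test (limma adjusted p = 0.450 and 0.210).

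Transport of lactate and pyruvate and the regulators of glycolysis were measured through 8 genes each. Of the transport genes 4 were tested, and 1 was called higher, beside 13.6% of all genes tested. This was Slc16a1 (MCT1, a proton-coupled lactate and pyruvate carrier), with 5.49 and 7.63 FPKM in mRNA and 59.9 and 41.9 FPKM in RPF, a difference of 1.51 ± 0.33 (limma adjusted p = 0.0319), which lost its call without either RNA-seq replicate. Its chaperone basigin, encoded by Bsg, was the most abundant of the list at 237 and 253 FPKM in mRNA and 934 and 909 FPKM in RPF, and its difference was 0.65 ± 0.13 (limma adjusted p = 0.0251), below the size needed for a call. Of the regulators 5 were tested, 1 was called higher and 1 lower, beside 13.6% and 5.73% of all genes. Tigar, a phosphatase that lowers fructose 2,6-bisphosphate and so slows phosphofructokinase, was at 11.8 and 13.7 FPKM in mRNA and 129 and 146 FPKM in RPF, a difference of 2.08 ± 0.24 (adjusted p = 0.00432, limma). The regulator called lower was Pfkfb1, named after its values were seen, with 8.51 and 7.24 FPKM in mRNA and 1.63 and 3.60 FPKM in RPF, a difference of -2.61 ± 0.49 (limma adjusted p = 0.0210). These RPF values rest on about 1.0 and 2.0 footprints, under the floor of 3 footprints (4.90 and 5.40 FPKM for Pfkfb1), so the size of the difference is uncertain, and the call was lost without either RNA-seq replicate, without centring and without the filter.

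Promoter sequence was examined because many genes of glycolysis are known targets of factors that bind ACGTG, the core of the hypoxia response element, or its palindrome CACGTG, the E-box. RefSeq promoters (GRCm38.p6, 250 bases before to 50 after each start) were available for 9 of the 10 genes, as 14 promoters, with no entry matched for Slc2a3. ACGTG on either strand was in 8 of these 14 (57.1%), in 7 genes, and in 19.6% of all 32851 promoters. GCGTG was in 6 of 14 (42.9%), in 5 genes, and in 32.4% of all promoters. These shares are a description of letters in a window, several promoters belong to 1 gene, and the Aldoa promoters with ACGTG overlap each other. The stretches upstream of the start that hold the ACGTG matches of Ldha and Pgk1 are shown as examples, with the matches in capitals. Hk2, Pkm and Hk1 each also had a promoter with 2 matches, and the spacing of matches was not compared between genes. CACGTG contains the motif on both strands.
Ldha, chr7:46845649-46845784 (GRCm38.p6), plus strand, from 155 to 20 bases before the start: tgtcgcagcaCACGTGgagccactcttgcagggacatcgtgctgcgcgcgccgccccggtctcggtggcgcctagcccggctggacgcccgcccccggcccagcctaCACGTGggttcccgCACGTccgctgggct
Pgk1, chrX:106186940-106186983 (GRCm38.p6), plus strand, from 160 to 117 bases before the start: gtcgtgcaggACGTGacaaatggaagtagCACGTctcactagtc
These 2 genes were at different levels in the blastocyst, with a mean mRNA of 57.9 FPKM for Pgk1 and 2.11 FPKM for Ldha. They were chosen as examples, and the relation of the motif to level was not tested.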

How the data were processed

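Blastocyst libraries, 2 of RNA-seq and 2 of Ribo-seq, were analysed. The authors deposited FPKM per gene and library. For RNA-seq they trimmed reads with Trim Galore 0.4.2, mapped them with STAR 2.5.3a to the mm9 transcriptome, and ran Cufflinks 2.2.1 on transcripts. For Ribo-seq they trimmed with cutadapt 1.14, removed rRNA with Bowtie2 2.2.2, mapped with STAR end-to-end with up to 2 mismatches, and ran Cufflinks on coding sequences. Reads at up to 20 places were kept. Discarding or dividing reads of many places can lower or blur genes with many copies.

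RPF against mRNA was fitted on log2(FPKM + 1) with limma 3.58.1 (R 4.3.3, trend, no replicate block), centred on the median of all genes tested. Replicates are separate libraries by label only, so p-values measure the spread between libraries, which may be technical. The members and gene lists were chosen with earlier results of these data known. Named genes were the 10 members, the called members of each other list with at least 10 FPKM mean in the higher assay (at most 3 per direction), the most abundant of each list, and Gpi1, Tpi1, Gapdh, Pgam1, Eno1 and Ldhb. Footprint numbers came from the implied totals and coding lengths, with Poisson intervals at the 95% level, and for RNA-seq with Cufflinks' default fragment lengths (mean 200 and SD 80 bases). Windows were counted as exact matches on both strands of NCBIM37 with GENCODE vM1 coding sequences, outside the gene itself, which differs from mapping to transcripts. Other steps used Python 3.11.15, numpy 2.4.6, scipy 1.17.1, pandas 2.3.3, numba 0.67.0 and matplotlib 3.10.9. The depth estimate, window counts and limma fit were tested on simulated data. For RPF against mRNA, with values drawn for 8327 genes, differences of 2, 3 and 5 (log2) were estimated at 1.91, 3.04 and 4.98 on average and were called in 23.9%, 37.3% and 77.3% of cases, with 7.07% of calls on unchanged genes. A missed call therefore does not show that RPF and mRNA did not differ. Alternatives were another pseudocount (0.1), filters, no centring, quantile normalization, a replicate block, means of repeated symbols, 32-base windows, and each library left out in turn.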

Additional observations from a re-analysis of the deposited data

How the results depend on the processing

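The scaling set the direction of several genes. Without centring, which leaves the median gene at 1.26 (log2), and without the filter, where the median over all 20714 genes is 0, Hk2 was at 1.20, Aldoa at 0.86, Pgk1 at 0.89, Eno1 at 0.87, Tpi1 at 0.99, Mdh2 at 0.56 and Taldo1 at 1.07, all above 0 instead of below. Quantile normalization put Slc2a1 at -0.10, Bsg at -0.016 and Fbp2 at -0.055. Hk2 ranged from -0.32 to 0.18 with 1 library left out, the latter without RNA-seq replicate 1. Of the 10 genes, 4 were called higher without the filter, and 6 of the 8 tested were called higher without centring. Over all genes, 2365 of 20714 were called higher and 115 lower without the filter. Without centring 4144 of 8327 were called higher and 66 lower, so calls of higher RPF were common at that setting. With at least 10 FPKM in both assays 647 of 3617 were called higher. The main fit gave 1134 higher and 477 lower of 8327. Quantile normalization gave 928 higher and 868 lower. Over the gene lists, 24 were called higher without the filter, 33 without centring and 4 with at least 10 FPKM, against 8. Called lower were 2 without the filter, 1 without centring and 10 under quantile normalization, against 4. Each of these list counts moved in the same direction as the count over all genes. Leaving out 1 library at a time gave 477 to 1564 genes called higher and 86 to 1621 lower, 1 to 2 of the 10 genes higher and 0 lower (2 without Ribo-seq replicate 1), and 3 to 10 list genes higher and 1 to 6 lower. In these fits the lone library was assumed to vary like the others. With a pseudocount of 0.1 the difference between assays in the log2 ratio moved from 0.67 to 3.57 for Hk1 over Hk2, from 2.79 to 4.35 for Ldha over Ldhb and to 1.71 for Aldoa over Aldoc, because one gene of each pair is at or near 0. The cause of the other changes was not tested. Replicate numbers are shared between the assays, but the deviations of same-numbered libraries had r = 0.00994 across 8327 genes and nothing in the labels pairs them. With the replicate block 1175 genes were called higher and 524 lower, and Slc2a3 was at 1.90 (limma adjusted p = 0.00226). With 32-base windows 46.1% of Aldoa, 61.1% of Ldha, 72.8% of Pkm and 100% of Pgk1 windows were copied elsewhere. Depth limits Hk1, Pfkp and Ldha, each with 11 footprints or fewer in both Ribo-seq libraries.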

Other observations

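The routes that leave and follow glycolysis were also read from the lists. All 7 genes of the pentose phosphate pathway were tested, and their median difference was 1.69. In RPF 3 were called higher and 0 lower, beside 13.6% and 5.73% of all genes tested. Pgd, 6-phosphogluconate dehydrogenase, had 16.9 and 25.1 FPKM in mRNA and 326 and 285 in RPF, a log2 difference of 2.56 ± 0.26 (adjusted p = 0.00301, limma). Tkt, transketolase, had 6.86 and 7.17 FPKM in mRNA and 116 and 106 in RPF, a difference of 2.55 ± 0.25 (adjusted p = 0.00263, limma). Rpia, ribose-5-phosphate isomerase, had 5.21 and 4.52 FPKM in mRNA and 71.2 and 34.9 in RPF, a difference of 1.86 ± 0.42 (adjusted p = 0.0332, limma), which lost its call without either RNA-seq replicate and without the filter on low values. Taldo1, transaldolase, the most abundant in the list at 143 and 169 FPKM in mRNA, had 325 and 330 in RPF, and its difference of -0.19 ± 0.17 did not pass the test. The list was split, with 4 genes above the median gene and 3 below. G6pdx and Pgls, which act before Pgd in the oxidative branch, were named after their values were seen. They were lower in RPF at -0.97 ± 0.34 and -0.93 ± 0.23 (limma adjusted p = 0.107 and 0.0425), and neither reached the size needed for a call. Their centred libraries did not overlap, against a background of 30.2% of all genes tested that were lower without overlap.

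Of 12 genes of pyruvate dehydrogenase and its kinases and phosphatases, 6 were tested and 2 were called higher, beside 13.6% of all genes tested, with a median of 0.48. Pdha1, the X-linked E1 subunit, had 67.0 and 76.8 FPKM in mRNA and 383 and 376 in RPF (1.13 ± 0.17, limma adjusted p = 0.0111). Pdp2, a phosphatase that activates the complex, had 12.9 and 8.90 FPKM in mRNA and 88.4 and 104.7 in RPF (1.79 ± 0.29, limma adjusted p = 0.0128). Pdhb, the other E1 subunit, named after its values were seen, was lower in RPF at -0.90 ± 0.18 (limma adjusted p = 0.0229), below the size needed for a call. Its centred libraries did not overlap, as for 30.2% of all genes tested in that direction. The call of Pdha1 was lost without either RNA-seq replicate and under quantile normalization (0.67), and that of Pdp2 without RNA-seq replicate 2. Among 6 gluconeogenesis genes 3 were tested and 1 was called higher, beside 13.6% of all genes tested. Pck2, the mitochondrial form of phosphoenolpyruvate carboxykinase, was called higher at 1.77 ± 0.36 (limma adjusted p = 0.0261), from 1.89 and 1.88 FPKM in mRNA and 25.0 and 20.4 in RPF, and lost its call without either RNA-seq replicate. Fbp2, the muscle-type fructose-1,6-bisphosphatase, was the most abundant at 150 and 171 FPKM in mRNA and 492 and 522 in RPF, with a difference of 0.40 ± 0.16 that did not pass the test.

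All 16 genes of the tricarboxylic acid cycle were tested, with a median of -0.23. Of these, 0 were called higher and 2 lower, beside 13.6% and 5.73% of all genes tested. Idh3g, a subunit of isocitrate dehydrogenase, had 221 and 226 FPKM in mRNA and 244 and 134 in RPF (-1.56 ± 0.30, limma adjusted p = 0.0227). Sdhb, the iron-sulfur subunit of succinate dehydrogenase, had 257 and 290 FPKM in mRNA and 316 and 222 in RPF (-1.30 ± 0.22, limma adjusted p = 0.0147). Both calls were lost without either RNA-seq replicate, and also without centring and without the filter, where Idh3g was at -0.30 and Sdhb at -0.041. Mdh2, mitochondrial malate dehydrogenase, was the most abundant at 423 and 437 FPKM in mRNA and 650 and 618 in RPF (-0.70 ± 0.13, limma adjusted p = 0.0184), which is below the size needed for a call. These lists were chosen with earlier results of these data known, and the differences between lists were not tested.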
